A study of Xenopus laevis with 12 samples.

Results

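The Dlx homeobox genes of *Xenopus laevis* were followed in whole embryos in which fam46a had been targeted with antisense oligonucleotides. Members were all probe sets whose annotated gene symbol begins with dlx and a digit, with the paired copies on the long and short subgenome (.L and .S) and all probe sets of a gene kept apart. They came to 9 of the 32539 probe sets tested and covered 7 of the 10 dlx genes in the gene table: dlx2.L, dlx2.S, dlx3.L (3 probe sets), dlx3.S, dlx5.L, dlx6.L and dlx6.S. No probe set was annotated to dlx4.L, dlx4.S or dlx5.S.

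The 12 arrays held total RNA of embryos collected at stage 10.5, early gastrula, or at stage 8, a blastula stage. All 4 blastomeres of the embryo had received an oligonucleotide at the animal pole. The groups, with 2 arrays each per stage, were Fam46a-MO1 at 10 ng per cell (MO1), Fam46a-MO2 with Fam46a-MO3 at 7 ng of each per cell (MO2+MO3), and the control oligonucleotide CoMO at 10 ng per cell. The labels call the arrays biological replicates and do not give a strain, the number of embryos per array, or which RNA feature each oligonucleotide binds. The study's stated purpose was to find genes affected by fam46a depletion, and the comparisons here show where the dlx genes stood among them.

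Dlx proteins are homeodomain transcription factors related to Distal-less of the fly. In frog gastrulae dlx3 and dlx5 are switched on by BMP signals in the ectoderm that will not form the neural plate, where they act with Tfap2, Gata and Grhl factors in epidermal genes and help to place the neural border. In vertebrates the genes lie in neighbouring pairs. In the gene table no gene lay between dlx5.L and dlx6.L, between dlx5.S and dlx6.S or between dlx3.L and dlx4.L, and 1 lay between dlx3.S and dlx4.S.

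Values are log2 expression measures centred by probe set, so that the median of the 6 arrays of a stage is 0. They compare arrays of 1 stage, and hold no level of their own. The array medians lay between -0.0103 and 0.0121. Values that were normalised and centred are likely to have array medians near 0, so these could hardly show an array that stood apart. The targeted gene, listed as tent5a.L, had 2 probe sets. At stage 10.5 these differed from CoMO by 0.02 ± 0.35 and -0.10 ± 0.29 in MO1, and by 0.39 ± 0.35 and 0.05 ± 0.29 in MO2+MO3 (log2 difference ± SE), and neither was called at either stage. Whether each oligonucleotide acts on translation or on splicing is not in the labels, so it is not settled whether these RNA values can check the depletion. In whole-embryo RNA, fewer cells that express a gene and less of its RNA per cell cannot be told apart. Whole-embryo arrays do not show in which cells a dlx RNA lay, so the name non-neural ectoderm rests on background knowledge of the genes.

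At stage 10.5, dlx3.S and 2 of the 3 dlx3.L probe sets were called lower in both depletions. The third dlx3.L probe set was called lower in MO2+MO3 only, and its log2 difference in MO1 was 0.40. Of the 4 dlx3 probe sets, 3 were called lower in MO1 and 4 in MO2+MO3, and dlx6.L was also called lower in MO1. In each depletion 4 of the 9 dlx probe sets were called, all lower, where 0.473% of all probe sets were called lower in MO1 and 0.344% in MO2+MO3 (0.916% and 0.907% in either direction). A call is an adjusted p under 0.05 in the limma fit, adjusted by the Benjamini-Hochberg method across the 32539 probe sets. Both depletions were set against the same 2 CoMO arrays, so they are not independent of each other.

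dlx3.S (gene 394327, probe set Xl2.838.1.S1_at) had centred log2 values of -0.01 and 0.01 in MO1, -0.05 and -0.10 in MO2+MO3, and 1.25 and 1.30 in CoMO. Both CoMO arrays lay far above all 4 depleted arrays, which stayed within a narrow band. The log2 difference from CoMO was -1.27 ± 0.11 in MO1 (limma adjusted p = 0.00308) and -1.35 ± 0.11 in MO2+MO3 (limma adjusted p = 0.00711). The depleted means were not shown to lie above the negative controls, as described with the levels. Against the top of those controls, the measured group means put dlx3.S at least 2.18-fold lower in each depletion. That bound leaves out the sampling error of a mean of 2 arrays. The 95% interval of the log2 difference ran from -1.52 to -1.02 in MO1 and from -1.60 to -1.10 in MO2+MO3.

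The first dlx3.L probe set (gene 779428, Xl2.14513.1.S1_s_at) had -0.02 and -0.15 in MO1, 0.02 and -0.17 in MO2+MO3, and 1.42 and 1.5 in CoMO. The groups were again separate, with the spread between replicates a small part of the gap. The log2 difference was -1.54 ± 0.13 in MO1 (limma adjusted p = 0.00308) and -1.53 ± 0.13 in MO2+MO3 (limma adjusted p = 0.00741). By the same bound on the group means, which leaves out their sampling error, it was at least 2.6-fold lower in each. The 95% interval of the log2 difference ran from -1.84 to -1.24 in MO1 and from -1.83 to -1.23 in MO2+MO3.

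The other dlx3.L probe set of this kind (Xl2.52202.1.S1_s_at) had -0.20 and 0.01 in MO1, -0.01 and -0.11 in MO2+MO3, and 1.51 and 1.32 in CoMO. It separated the groups in the same way. Against CoMO the log2 difference was -1.50 ± 0.12 in MO1 (limma adjusted p = 0.00227) and -1.47 ± 0.12 in MO2+MO3 (limma adjusted p = 0.00711). Its signal was dim, as described with the levels, so no fold is given.

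The 2 depletions were set against each other on these 3 probe sets. The MO1 minus MO2+MO3 difference was 0.07 for dlx3.S (95% interval -0.18 to 0.33), -0.01 for the first dlx3.L probe set (-0.31 to 0.29) and -0.03 for the other (-0.30 to 0.24). None was called. A call asks for more than a 95% interval that leaves out 0, so differences within those intervals, and some beyond them, would not have been called. In MO1 the 3 calls held without any 1 array of the comparison. In MO2+MO3 they held without CoMO replicate 1 or MO2+MO3 replicate 1 and were lost without CoMO replicate 2 or MO2+MO3 replicate 2. The fits without 1 array called fewer of all probe sets as well, so a lost call is not particular to dlx3.

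**Figure D1:**
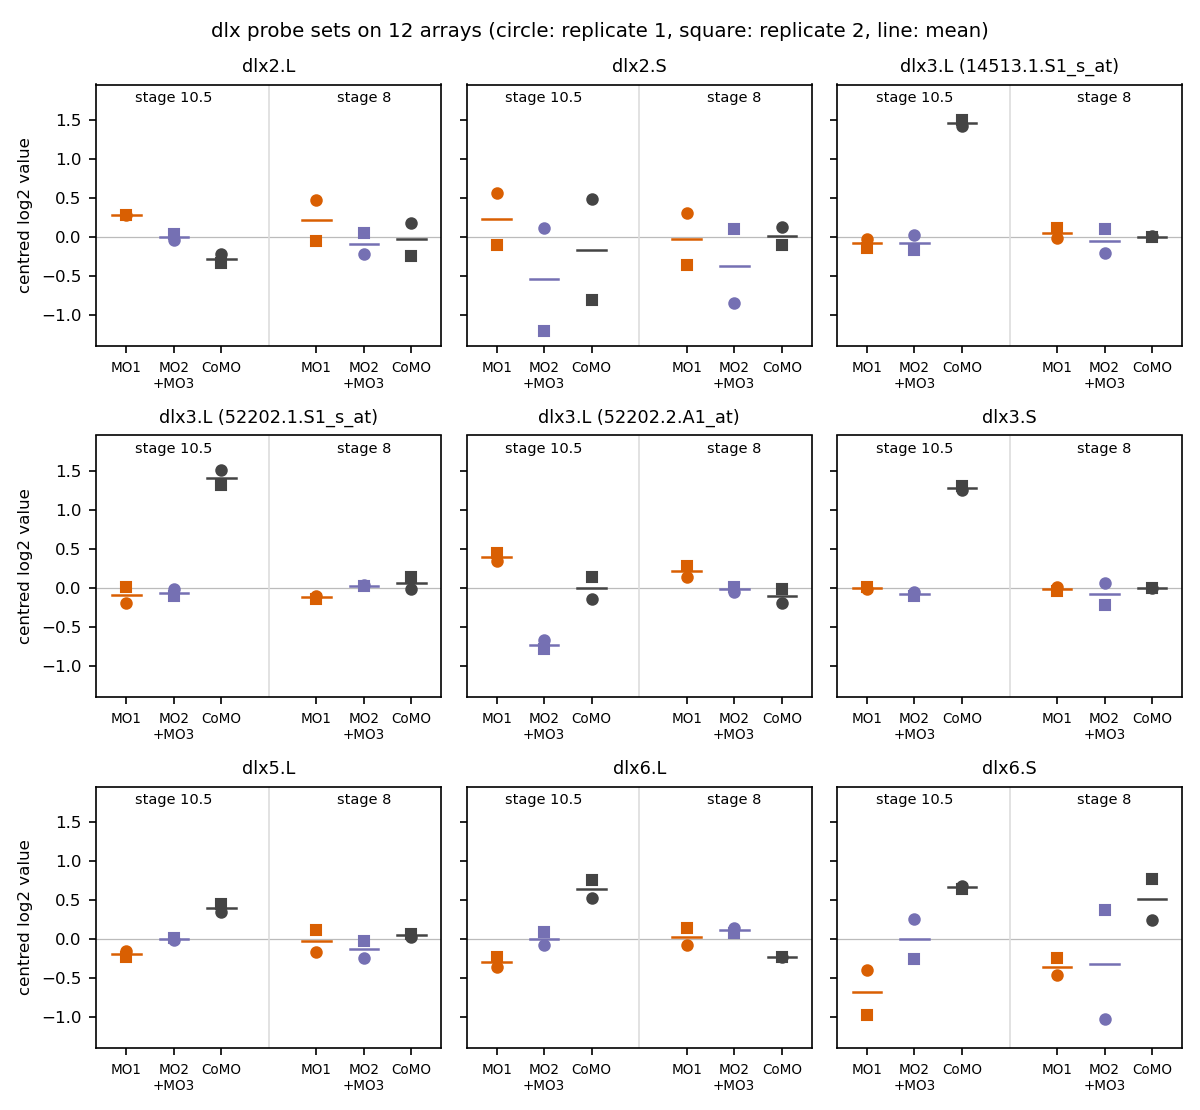
Centred log2 values of the 9 dlx probe sets (vertical axis) on the 12 arrays, with circles for replicate 1, squares for replicate 2 and a line at the mean of each group. At stage 10.5 the CoMO arrays of dlx3.S and of the first 2 dlx3.L probe sets lie between 1.25 and 1.51, above every depleted array, while at stage 8 the same probe sets lie within 0.21 of 0.

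The third dlx3.L probe set (Xl2.52202.2.A1_at) behaved differently from the other 3. It had 0.35 and 0.44 in MO1, -0.67 and -0.78 in MO2+MO3, and -0.14 and 0.14 in CoMO. Both MO1 arrays lay above, and both MO2+MO3 arrays below, the CoMO arrays. Of all probe sets, 19.8% had both MO1 arrays above both CoMO arrays, and the share with both orders was not counted. The log2 difference from CoMO was 0.40 ± 0.13 in MO1 (limma adjusted p = 0.262, and 0.0336 with the replicate block) and -0.73 ± 0.13 in MO2+MO3 (limma adjusted p = 0.0487). Between the depletions it was 1.12 ± 0.13 higher in MO1 (95% interval 0.83 to 1.42, limma adjusted p = 0.0145). It was the 1 dlx probe set of 9 called between the depletions, where 0.55% of all probe sets were called. Both calls were lost when any 1 array of their comparison was left out, in fits that called fewer of all probe sets as well. With the replicate block, under which 9.75% of all probe sets were called, the difference between the depletions was called without each array in turn. Which strand or stretch of dlx3.L this probe set matches is not given in the sources used here, so it is not settled which of the dlx3.L probe sets reads the gene's main transcript.

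dlx6.L (gene 443711, Xl2.47476.1.S1_at) lies next to dlx5.L, and in the mouse Dlx5 and Dlx6 act together in the jaw and forebrain. Its values were -0.36 and -0.24 in MO1, -0.08 and 0.08 in MO2+MO3, and 0.52 and 0.75 in CoMO. The 3 groups did not overlap, with MO1 lowest and CoMO highest. Of all probe sets, 9.34% had all 4 depleted arrays below both CoMO arrays, and the share with all 3 groups apart was not counted. The log2 difference from CoMO was -0.94 ± 0.13 in MO1 (limma adjusted p = 0.0197) and -0.64 ± 0.13 in MO2+MO3 (limma adjusted p = 0.0706, which the replicate block took to 0.00294). The MO1 call held without CoMO replicate 1 and was lost without CoMO replicate 2, MO1 replicate 1 or MO1 replicate 2. Those fits called fewer of all probe sets as well.

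dlx5.L (gene 399265, Xl2.18401.1.S1_at), an early marker of the ectoderm around the neural plate, had -0.15 and -0.23 in MO1, -0.01 and 0.01 in MO2+MO3, and 0.35 and 0.45 in CoMO. The order of the groups was that of dlx6.L, with smaller gaps and no overlap. The log2 difference was -0.59 ± 0.12 in MO1 (limma adjusted p = 0.0818, or 0.0036 when blocked) and -0.40 ± 0.12 in MO2+MO3 (limma adjusted p = 0.236, or 0.0188 when blocked). It was therefore called in both depletions with the block and in neither without it.

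dlx6.S (gene 779193, Xl2.262.1.S1_at) was more variable. It had -0.40 and -0.97 in MO1, 0.26 and -0.26 in MO2+MO3, and 0.68 and 0.64 in CoMO. All depleted arrays lay below the CoMO arrays, but replicates of a depletion lay over 0.5 apart. Relative to CoMO it had a log2 difference of -1.34 ± 0.42 in MO1 (limma adjusted p = 0.251, and 0.00771 with the block) and -0.66 ± 0.42 in MO2+MO3 (limma adjusted p = 0.693, and 0.109 with the block).

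The dlx2 genes are best known from the mouse, where Dlx2 acts in forebrain interneurons and in branchial arches. dlx2.L (gene 399264, Xl2.721.1.S1_at) had 0.28 and 0.28 in MO1, -0.04 and 0.04 in MO2+MO3, and -0.22 and -0.34 in CoMO. It was the 1 dlx probe set on which both depletions lay above CoMO without overlap. Taken alone, MO1 lay above CoMO in this way on 19.8% of all probe sets and MO2+MO3 on 19.7%. The share with both above was not counted. The log2 difference was 0.56 ± 0.20 in MO1 (limma adjusted p = 0.314, and 0.057 with the block) and 0.28 ± 0.20 in MO2+MO3 (limma adjusted p = 0.742), so it was not called.

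dlx2.S (gene 734247, Xl2.10415.1.S1_at) had 0.56 and -0.11 in MO1, 0.11 and -1.20 in MO2+MO3, and 0.49 and -0.81 in CoMO. The groups overlapped, and the first replicate was the higher in each. Against CoMO the log2 difference was 0.39 ± 0.57 in MO1 and -0.38 ± 0.57 in MO2+MO3 (limma adjusted p = 0.964 in each). Without 1 array the sign turned in both comparisons, so no direction can be given.

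**Figure D2:**
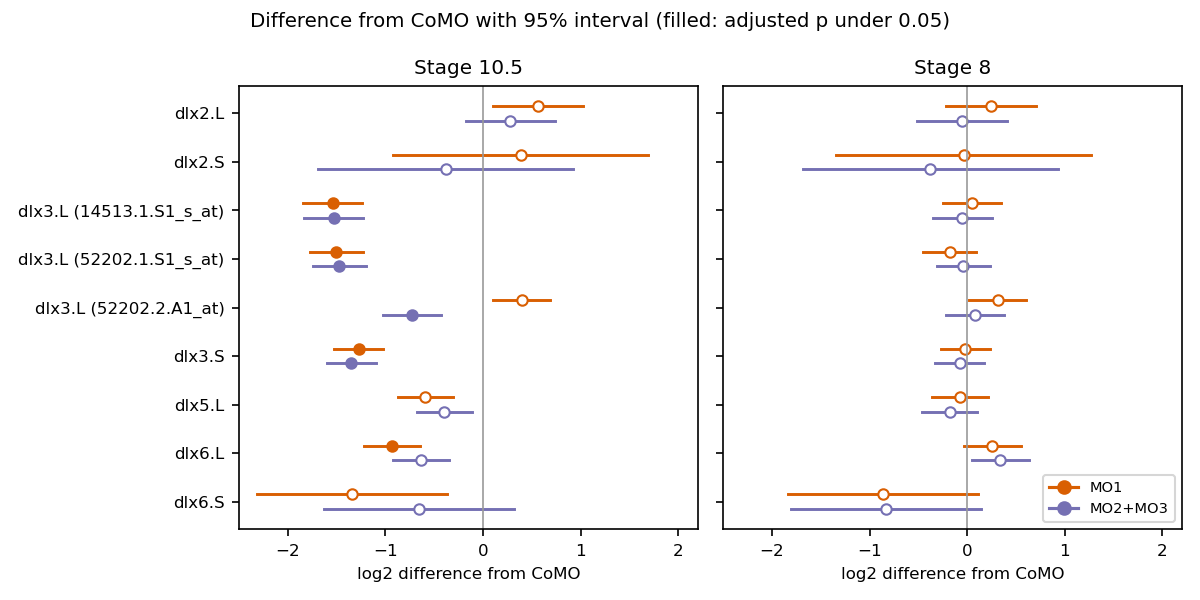
Log2 difference from CoMO of each dlx probe set in MO1 and MO2+MO3, at stage 10.5 (left) and stage 8 (right), as points with 95% intervals, filled where the adjusted p is under 0.05. The 4 filled points per depletion all lie at stage 10.5 and below 0, and the intervals of dlx2.S and dlx6.S are the widest.

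Over the family, all 4 depleted arrays lay below both CoMO arrays at stage 10.5 on 6 of the 9 probe sets (2 of dlx3.L, and those of dlx3.S, dlx5.L, dlx6.L and dlx6.S), an order that 9.34% of all probe sets had. The median log2 difference of the 9 was -0.94 in MO1 and -0.66 in MO2+MO3, beside 0.02 and 0.00 over all probe sets. For the mean of both depletions against CoMO, 4 of 9 were called, all lower (2 of dlx3.L, dlx3.S and dlx6.L), where 0.464% of all probe sets were called lower (0.996% in either direction). With the block that mean gave 6 calls, beside 19.1% of all probe sets. By that mean the first dlx3.L probe set ranked 24 from the lowest of 32539, the second 31 and dlx3.S 62. dlx6.S ranked 188, dlx6.L 411 and dlx5.L 1402.

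With the replicate number as a block, 7 of the 9 were called in MO1 (6 lower, and the third dlx3.L probe set higher) and 6 in MO2+MO3 (all lower). The same fit called 16.2% of all probe sets in MO1 (7.75% lower, 8.48% higher) and 16.8% in MO2+MO3 (7.77% lower). When only the 6 arrays of stage 10.5 entered an unblocked fit, 0 of the 9 were called in either depletion and 0 of all probe sets, and with the block added 7 were called in each.

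At stage 8 no dlx probe set was called in either depletion, with or without the block. Without the block the limma fit called 0.00615% of all probe sets in MO1 and 0 in MO2+MO3, and with the block 0.123% and 0.141%. At an unadjusted p under 0.05 it passed 1 dlx probe set in each, the third dlx3.L probe set in MO1 and dlx6.L in MO2+MO3, both higher, beside 1.93% and 2.34% of all probe sets. With the block that cut passed 3 in MO1 (the third dlx3.L probe set and dlx6.L higher, dlx6.S lower) and 2 in MO2+MO3 (dlx6.L higher, dlx6.S lower), beside 8.19% and 10.9%. dlx3.S had 0.01 and -0.04 in MO1, 0.06 and -0.21 in MO2+MO3, and -0.00 and 0.00 in CoMO. The first dlx3.L probe set had -0.02 and 0.12 in MO1, -0.20 and 0.10 in MO2+MO3, and 0.01 and -0.01 in CoMO. The depleted arrays lay on both sides of CoMO on both probe sets.

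The differences of dlx6.L from CoMO had opposite signs at the 2 stages, but those at stage 8 were not called with or without the block. Its stage 8 level was bracketed at 2.26 to 4.26 in MO1, 2.34 to 4.34 in MO2+MO3 and 2 to 4 in CoMO. These brackets lay within the range of the negative controls or met it, so a reversal is not shown. At stage 8 dlx6.L had -0.08 and 0.14 in MO1, 0.14 and 0.08 in MO2+MO3, and -0.23 and -0.23 in CoMO. All depleted arrays lay above CoMO, the reverse of their order at stage 10.5. The share of all probe sets with that order at stage 8 is not given here. The log2 difference was 0.26 ± 0.13 in MO1 and 0.34 ± 0.13 in MO2+MO3 (limma adjusted p = 1 in each).

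The third dlx3.L probe set had 0.14 and 0.28 in MO1, -0.05 and 0.01 in MO2+MO3, and -0.19 and -0.01 in CoMO at stage 8. MO1 was the highest group there, as at stage 10.5, with a log2 difference of 0.31 ± 0.13 (limma adjusted p = 1). dlx6.S had -0.46 and -0.25 in MO1, -1.02 and 0.37 in MO2+MO3, and 0.25 and 0.77 in CoMO. Only MO1 kept below CoMO without overlap, an order whose share of all probe sets at stage 8 is not given here. The log2 difference of dlx6.S was -0.86 ± 0.42 in MO1 and -0.83 ± 0.42 in MO2+MO3 (limma adjusted p = 1 in each, and 0.389 and 0.279 with the block). The values of dlx5.L at stage 8 ran between -0.24 and 0.11, those of dlx2.L between -0.25 and 0.47, and those of dlx2.S between -0.85 and 0.30.

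The change of an effect between stages was tested as the log2 difference from CoMO at stage 10.5 minus that at stage 8. At stage 8 all dlx3 probe sets, dlx5.L and dlx6.L lay within or met the range of the negative controls. A fall at stage 8 could not have been seen on them, so the test cannot show that a fall was confined to stage 10.5. Without the block none of the 9 was called in either depletion, where the limma fit called 0.0215% of all probe sets for MO1 and 0.00922% for MO2+MO3, and 5 of 9 had an unadjusted p under 0.05 in each, beside 4.74% and 4.55% of all probe sets. For dlx3.S the change was -1.26 ± 0.15 for MO1 (limma adjusted p = 0.0672, and 0.00292 with the block) and -1.27 ± 0.15 for MO2+MO3 (0.107, and 0.00468 with the block). Once the block was added, 4 were called for MO1 (2 of dlx3.L, dlx3.S and dlx6.L), where 4.16% of all probe sets were, and 5 for MO2+MO3 (3 of dlx3.L, dlx3.S and dlx6.L), where 3.84% were. For dlx5.L the change was -0.52 ± 0.17 for MO1 (0.844, and 0.0635 with the block) and -0.22 ± 0.17 for MO2+MO3 (1, and 0.432 with the block).

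The level removed by centring could be bounded from the rounding of the deposited numbers, which brackets the log2 signal of the lowest array at each stage and hence each group mean. Negative control probe sets had medians between 1.08 and 4.25 by the same measure. dlx3.S lay between 4.1 and 8.1 in MO1, 4.02 and 8.02 in MO2+MO3 and 5.37 and 9.37 in CoMO at stage 10.5, against 1.21 to 2.21 in CoMO at stage 8. The CoMO mean was thus at least 3.16 log2 units higher at stage 10.5 than at stage 8, and the depleted means stayed at least 1.91 (MO1) and 1.88 (MO2+MO3) above their own stage 8 means. The measured fall of dlx3.S in the depletions was therefore smaller than its gap between the stages.

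The first dlx3.L probe set lay between 5.62 and 9.62 in CoMO at stage 10.5, against 2.2 to 4.2 in CoMO at stage 8, at least 1.42 higher. In MO1 and MO2+MO3 the intervals of the stages met, and a gap was not shown. For the third dlx3.L probe set the CoMO gap was at least 2.69, and for dlx5.L at least 0.34. For the other 5 probe sets the intervals overlapped, so no order of stages can be given. These gaps hold only if the arrays of both stages were put on 1 scale, which the sources used here do not state.

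The brackets of several depleted means began below the top of the negative controls. These were dlx3.S and the first dlx3.L probe set (from 4.08 in MO1 and 4.09 in MO2+MO3), dlx5.L (from 4.04 and 4.23) and, in MO2+MO3, the third dlx3.L probe set (from 4.06). Their CoMO means began above it. The bound on a fold takes the lower end of the CoMO bracket against the top of the controls, 4.25, wherever the depleted bracket begins below it. It holds for the means of these arrays and leaves out their sampling error. Other dlx signals were too dim to size a fall. At stage 10.5 the second dlx3.L probe set lay between 2.1 and 4.1 in MO1, 2.14 and 4.14 in MO2+MO3 and 3.61 and 5.61 in CoMO. dlx6.L lay between 2.06 and 4.06 in MO1, 2.36 and 4.36 in MO2+MO3 and 3 and 5 in CoMO. The depleted means of both lay in the range of the negative controls or, for dlx6.L in MO2+MO3, overlapped it, and their CoMO means were not shown to lie above it. At stage 8 all dlx3 probe sets, dlx5.L and dlx6.L had intervals within or overlapping that range in every group, so a fall there could not have been seen. dlx2.L, dlx2.S and dlx6.S had median levels above 4.2 at both stages. Some dlx2.L group means still began below the top of the controls, from 4.06 in CoMO at stage 10.5. At stage 8 they began at 4.16 in MO2+MO3 and 4.22 in CoMO.

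**Figure D3:**
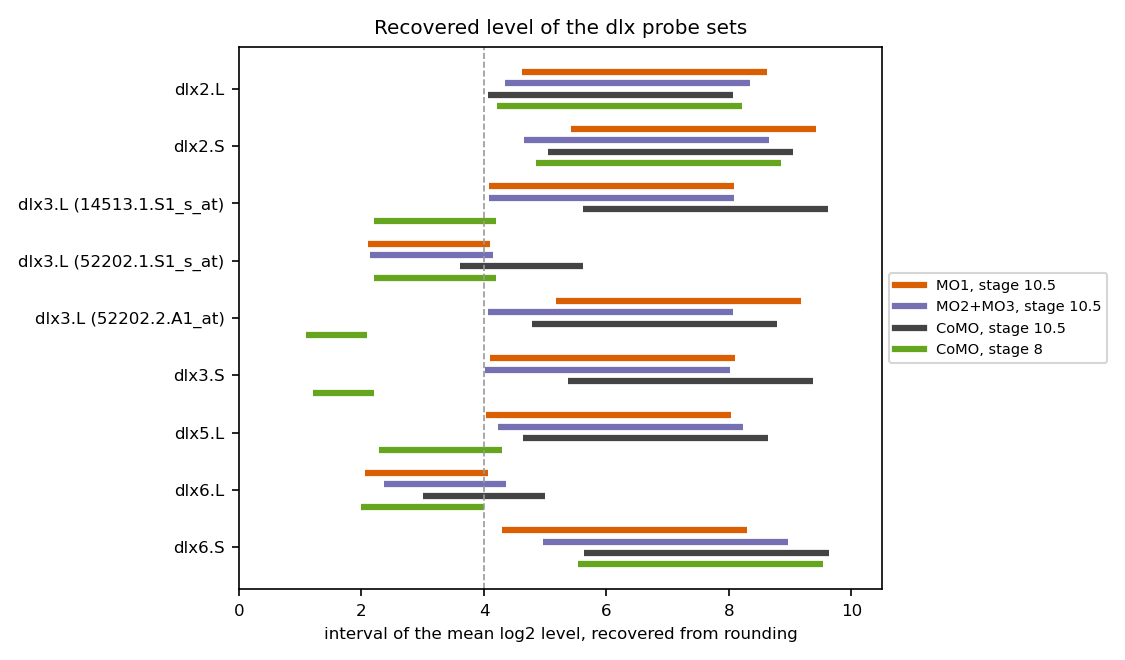
Interval of the mean log2 level of each dlx probe set (horizontal axis) in MO1, MO2+MO3 and CoMO at stage 10.5 and in CoMO at stage 8, recovered from rounding, with a dashed line at 4. For dlx3.S the 3 bars of stage 10.5 start at 4.02 or above while the stage 8 bar ends at 2.21.

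The dlx probe sets were also compared with each other over the 6 arrays of stage 10.5. dlx3.S and the first 2 dlx3.L probe sets lay close together, with a root mean square difference of 0.13 for each of the 3 pairs and Pearson r between 0.984 and 0.995. The third dlx3.L probe set did not share that pattern (r of 0.14, 0.17 and 0.22 with those 3). Probe sets may bind both copies of a gene, so a fall of dlx3.L apart from that of dlx3.S is not shown. The neighbours dlx5.L and dlx6.L had a difference of 0.17 and r of 0.977, and dlx5.L and dlx2.L ran in opposite directions with r of -0.968. dlx6.L and dlx6.S differed by 0.37 (r of 0.823). These coefficients describe 6 arrays in 3 groups, which share the CoMO arrays and the replicate numbers, and have no test.

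By the smallest root mean square difference over the same 6 arrays, the genes most like dlx3.S were post.L, loxl1.L and acy3.L. The difference was 0.12 for post.L (r of 0.989), 0.13 for loxl1.L (r of 0.984) and 0.13 for acy3.L (r of 0.985). loxl1.L codes for a lysyl oxidase-like enzyme of the extracellular matrix, and acy3.L for an aminoacylase. The same 3 genes were the most alike for both of the first 2 dlx3.L probe sets. Their log2 differences in MO1 and MO2+MO3 were -1.15 and -1.36 for post.L, -1.22 and -1.38 for loxl1.L, and -1.4 and -1.46 for acy3.L (limma adjusted p for the mean of both depletions 0.00397, 0.0129 and 0.0211). These genes were picked for likeness to called probe sets on the same arrays. Their differences and adjusted p therefore follow from that choice and are no separate evidence.

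Other members had other nearest genes. For dlx6.L they were cyb561.L, which codes for a cytochrome b561, the muscle determination gene myod1.L and the replication gene mcm6.2.L (0.08 each, r between 0.982 and 0.990). For dlx6.S they were the neural plate gene sox2.L (0.13, r of 0.982), mab21l3.S (0.15) and the purine salvage gene pnp.L (0.22). For the third dlx3.L probe set they were dazap2.S (0.08, r of 0.988), ctdsp2.L (0.15) and atp5f1a.L (0.16), none of them called for the mean of both depletions with or without the block. Likeness on the same arrays was the rule of choice here too, so the lack of a call follows from it.

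Genes of the pathway that acts on dlx were taken from lists and counted at stage 10.5 in the same limma fit. The counts of every list below, tissue markers included, are to be read beside these shares of all probe sets. Without the block 0.473% were lower in MO1 and 0.344% in MO2+MO3, of 0.916% and 0.907% called. With the block 7.75% were lower and 8.48% higher in MO1. In MO2+MO3 7.77% were lower with the block, of 16.8% called. Of 13 probe sets for BMP ligands, 0 were called in either depletion without the block. With it 5 were lower and 0 higher in MO1, and 4 lower and 3 higher in MO2+MO3. The median log2 difference was -0.31 in MO1 and -0.06 in MO2+MO3. bmp4.L, a ligand that turns on dlx3 in frog ectoderm, had -0.45 ± 0.17 in MO1 and -0.40 ± 0.17 in MO2+MO3 (limma adjusted p = 0.383 and 0.441, and 0.0131 and 0.0197 with the block). The 2 probe sets of bmp4.S had -0.31 and -0.40 in MO1 and -0.54 and -0.60 in MO2+MO3, where the first was called with the block (0.0334). bmp7.2.L had -0.38 and -0.04, and bmp7.1.L 0.01 and -0.60, in MO1 and MO2+MO3 in that order. None was called without the block, and with it bmp7.2.L was called in MO1 (0.0398) and bmp7.1.L in MO2+MO3 (0.00866). The 3 ligand probe sets called higher with the block in MO2+MO3 were all of bmp2, named after its values were seen. bmp2.S had 0.84 and bmp2.L 0.71 and 0.65 there (limma adjusted p with the block 0.0033, 0.0073 and 0.0158). In MO1 they had 0.07, 0.09 and 0.19 and were not called.

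Of 20 probe sets for secreted BMP antagonists and modulators, which bind the ligands or tune their range, 0 were called without the block. The medians were -0.06 in MO1 and -0.08 in MO2+MO3, and with the block 3 were lower in MO1, with 2 lower and 1 higher in MO2+MO3. Of 25 for receptors and Smads, 0 were called without the block. Their medians were 0.03 and 0.01, and with the block 4 were higher in MO1, with 3 lower and 2 higher in MO2+MO3.

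Of 31 probe sets for BMP targets, 1 was called in each depletion, both lower, with medians of -0.23 in MO1 and -0.13 in MO2+MO3. With the block 9 were lower and 5 higher in MO1, and 7 lower and 1 higher in MO2+MO3. In MO1 the call without the block was ventx1.1.S, a ventral homeobox repressor, with -0.74 ± 0.10 (limma adjusted p = 0.0234), against -0.23 ± 0.10 in MO2+MO3 (0.470). In MO2+MO3 it was evx1.L, a posterior homeobox gene, with -1.18 ± 0.21 (limma adjusted p = 0.0482), against -0.66 ± 0.21 in MO1 (0.241, or 0.0483 when blocked). The list shares 16 probe sets with the next one, which are 51.6% of this list and 35.6% of the next. They are those of ventx1.1, ventx1.2.S, ventx2.1, msx1, msx2.L and gata2.L. The BMP target list also shares bambi.L, smad6 and smad7.L with the receptors and Smads, and szl with the antagonists. The counts of these lists are therefore not separate.

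Of 45 probe sets for other regulators of non-neural ectoderm, 2 were called lower in MO1 (ventx1.1.S and klf17.L) and 0 in MO2+MO3, and with the block 13 were lower and 4 higher in MO1, and 7 lower and 3 higher in MO2+MO3. Their medians, -0.20 in MO1 and -0.05 in MO2+MO3, were nearer 0 than those of the dlx probe sets. Several of the 45, such as those of tp63.L (1.13 to 2.13) and tfap2e.L (1.31 to 2.31), had median levels within the range of the negative controls. A fall could not be seen on these, so the medians do not compare genes of like level. klf17.L, which codes for a Krüppel-like factor, had -0.69 ± 0.11 in MO1 (limma adjusted p = 0.0347) and -0.18 ± 0.11 in MO2+MO3 (0.639). gata3.S, a zinc finger factor of early epidermis, had -0.59 and -0.48 in MO1 and -0.71 and -0.65 in MO2+MO3 on its 2 probe sets, both called in each depletion with the block (limma adjusted p between 0.00201 and 0.00719). The second was called without it for the mean of both depletions (-0.57, limma adjusted p = 0.0496). gata2.L had -0.64 and -0.59 in MO1 and -0.36 and -0.53 in MO2+MO3, called in both with the block alone. Of the probe sets called higher with the block, foxi2.L, a forkhead factor of early ectoderm, had 0.69 ± 0.21 in MO1 and 0.51 ± 0.21 in MO2+MO3 (limma adjusted p = 0.235 and 0.413, and 0.00175 and 0.00647 with the block). foxi2.S had 0.44 ± 0.18 and 0.56 ± 0.18 (0.402 and 0.237, and 0.0154 and 0.00534 with the block). The foxi2 genes were named after their values were seen.

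The partners of Dlx3 in epidermal genes, with gata2.L and gata3.S above, had smaller differences than dlx3.S and the first 2 dlx3.L probe sets. In MO1 some of them, such as grhl3, had differences larger in size than the 0.40 of the third dlx3.L probe set. tfap2a.L had -0.26 ± 0.10 in MO1 and 0.18 ± 0.10 in MO2+MO3, and tfap2a.S had -0.01 ± 0.21 and 0.16 ± 0.21, none called with or without the block. grhl3.L had -0.51 ± 0.22 and -0.29 ± 0.22, and grhl3.S had -0.46 ± 0.15 and -0.09 ± 0.15, with the MO1 values called with the block alone (limma adjusted p = 0.0144 and 0.0213). msx1.L, a homeobox repressor at the neural border, had -0.40 ± 0.12 and -0.48 ± 0.12, called in both depletions with the block alone, and msx1.S had -0.24 ± 0.21 and -0.54 ± 0.21, the second called with the block (0.0302).

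Of 27 probe sets for epidermal keratins and differentiation, 4 were called lower in each depletion and 0 higher, with medians of -0.06 in MO1 and -0.19 in MO2+MO3. With the block 8 were lower and 0 higher in each. krt12.4.L, an epidermal keratin, had -2.80 ± 0.13 in MO1 and -2.43 ± 0.13 in MO2+MO3 (limma adjusted p = 0.000403 and 0.00181). Its level was bracketed at 1.15 to 2.15 in MO1, 1.52 to 2.52 in MO2+MO3 and 3.95 to 4.95 in CoMO, within or meeting the range of the negative controls, so no fold is given. krt70.L had -2.22 ± 0.37 in MO1 (0.0378) and -1.88 ± 0.37 in MO2+MO3 (0.0671, or 0.000789 when blocked). trim29.S, which codes for a tripartite motif protein of epithelia, had -0.82 ± 0.14 in MO1 (0.0469) and -1.16 ± 0.14 in MO2+MO3 (0.0178), and trim29.L was called in MO2+MO3 on both of its probe sets and in MO1 on 1, or on both when blocked (0.00302 and 0.00355).

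Of 62 probe sets for neural plate and border genes, 2 were called lower and 1 higher in MO1, and 0 in MO2+MO3, with medians of -0.16 and -0.06. With the block 16 were lower and 1 higher in MO1, and 6 lower and 0 higher in MO2+MO3. Of all probe sets 7.75% were lower with the block in MO1 and 7.77% in MO2+MO3. sox2.L, a neural plate factor, had -1.38 ± 0.22 in MO1 (limma adjusted p = 0.0378) and -0.88 ± 0.22 in MO2+MO3 (0.145, or 0.00192 when blocked) on 1 of its 3 probe sets. The other two were called in both depletions with the block alone. pax3.L, a neural border factor, had -1.72 ± 0.22 in MO1 (0.0171) and -0.33 ± 0.22 in MO2+MO3 (0.717) on 1 of its 5 probe sets. The other 4 ran between -1.07 and 0.06 in MO1 and between -0.78 and 0.07 in MO2+MO3, with 2 of them called lower in both depletions with the block alone. foxd4l1.2.L, a forkhead factor of early neural ectoderm, had 1.43 ± 0.12 in MO1 (0.00289) and 0.24 ± 0.12 in MO2+MO3 (0.520).

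**Figure D4:**
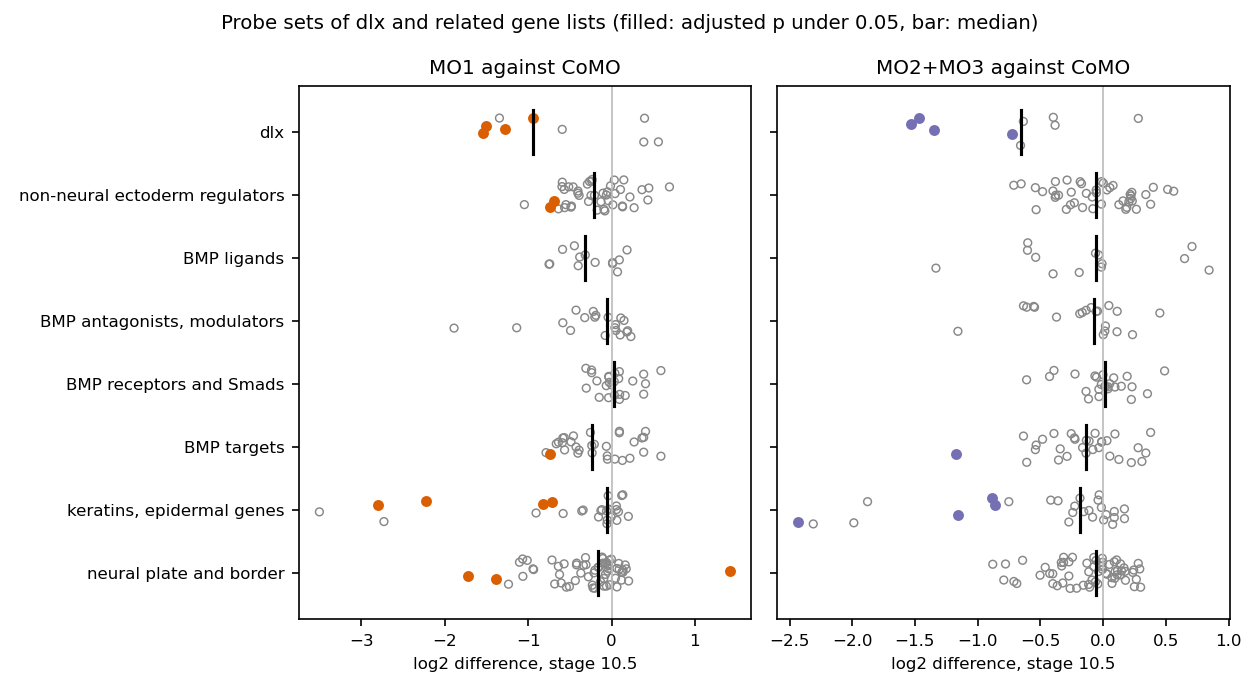
Log2 difference from CoMO at stage 10.5 (horizontal axis, its range set for each panel) of the probe sets of dlx and of 7 related gene lists, in MO1 (left) and MO2+MO3 (right), filled where the adjusted p is under 0.05 and with a bar at each median. The dlx medians are -0.94 and -0.66, and those of the 7 lists lie between -0.31 and 0.03. The tissue marker lists are not drawn, and of these the mesoderm markers had the medians nearest those of dlx, -0.72 and -0.65.

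Markers of other tissues also lay off 0 in the depletions at stage 10.5, and the mesoderm, endoderm, organizer and maternal lists had no call in the fit without the block. Of 11 mesoderm probe sets, 90.9% lay below 0 in MO1 and 81.8% in MO2+MO3, with medians of -0.72 and -0.65, and with the block 8 and 6 were lower. Of 18 endoderm probe sets, the medians were -0.37 and -0.31, and with the block 6 and 4 were lower. Of 9 organizer probe sets the medians were -0.45 and -0.13, and with the block 3 and 1 were lower. Of 10 for germ plasm and maternal RNA, the medians were 0.23 and 0.26, and with the block 2 were higher in MO1 and 3 in MO2+MO3. The 19 ectoderm and epidermis probe sets all belong to the regulator or keratin list above, so they are not a further set. Of these, 2 were lower in MO1 and 1 in MO2+MO3 without the block, with medians of -0.48 and -0.29. With the block 11 were lower and 1 higher in MO1, and 9 lower in MO2+MO3. The organizer list likewise shares cer1.S with the antagonists and otx2 with the neural list. Since the values are centred, summed levels of these markers cannot be given. Their part in the dlx results was not tested.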

How the data were processed

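Per the submitters' processing notes the authors used RMA (version not stated), and they deposited its log values for each probe set in 1 table, from biotin-labelled cRNA of 100 ng of total RNA. The deposited values were taken as log2, a base that no source used here states, and their median over the 6 arrays of each stage is within 1e-06 of 0 for all 32635 probe sets, a centring that no header or label records. The 96 control probe sets were left out. The platform annotation gives 1 gene for 15495 of the 32539 others, several for 279 and none for 16765. Of those with 1 gene, 15384 matched the Xenopus_laevis_v10.1 gene table, and 2 symbols were updated. Probe sets may bind both copies of a gene.

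limma 3.58.1 in R 4.3.3 (lmFit and eBayes, two-sided) was fitted to all 12 arrays with 1 mean for each of the 6 groups, and adjusted by Benjamini-Hochberg over all probe sets of each of 10 contrasts. Errors are moderated standard errors with 2 arrays per group, and precision is limited by the number of arrays. Same-numbered arrays deviated together from their group means (r between 0.821 and 0.864 over probe sets in all pairs of groups within a stage). What a number shares is not in the labels. The main fit does not use the number, so calls given without mention of the block leave this pairing out. The median residual SD was 0.175 in the main fit and 0.104 with the block. A fit with the number within each stage as a block is given beside a result where it changes a call, and as counts for each gene list. The script was tested on simulated data.

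Levels were bracketed from how the deposited numbers, held in single precision, were rounded. In a test on 20000 generated numbers the bracket came out too high in 4.33% and was too low or absent in 0.705%. Members and gene lists were chosen with earlier results of these data known. All dlx probe sets are named, with up to 4 called probe sets per direction of each list and fixed genes (tfap2a, gata2, gata3, grhl3, msx1, bmp4, bmp7) whatever their values. For each dlx probe set with an SD above 0.3 over the 6 arrays of stage 10.5, the 3 most alike genes were listed. Alternatives were the block, other scaling, robust eBayes, 1 stage alone, dim probe sets left out, means per symbol, and each array left out.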

Additional observations from a re-analysis of the deposited data

Results flagged for a closer look

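For 5 dlx probe sets the effect of a depletion differed between the stages in a test of the difference itself, with the replicate number as a block. The same test called 4.16% of all probe sets for MO1 and 3.84% for MO2+MO3. Each value is the log2 difference from CoMO at stage 10.5 minus that at stage 8. For MO1 the first dlx3.L probe set (Xl2.14513.1.S1_s_at) had -1.59, the second (Xl2.52202.1.S1_s_at) -1.32, dlx3.S -1.26 and dlx6.L -1.19, with limma adjusted p of 0.00228, 0.00506, 0.00292 and 0.00369. For MO2+MO3 the first dlx3.L probe set had -1.48, the second -1.43, dlx3.S -1.27, dlx6.L -0.98 and the third dlx3.L probe set (Xl2.52202.2.A1_at) -0.81, with adjusted p of 0.00461, 0.00475, 0.00468, 0.00909 and 0.0244. Without the block none of these passed the threshold, with adjusted p between 0.0593 and 0.107 for MO1 and between 0.107 and 0.472 for MO2+MO3. Both stages' signals of dlx6.L, and the stage 8 signals of all dlx3 probe sets, lay in the range of the negative controls or met it. A fall at stage 8 could therefore not have been seen on these probe sets, and the test cannot tell whether there was one.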

How the results depend on the processing

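Counts of called dlx probe sets are given for MO1, MO2+MO3, the mean of both depletions and MO1 against MO2+MO3 at stage 10.5, in that order, and were 4, 4, 4 and 1. The shares of all probe sets called were 0.916%, 0.907%, 0.996% and 0.55%. With the replicate block the counts were 7, 6, 6 and 1, beside 16.2%, 16.8%, 19.1% and 9.75% of all probe sets. On the 6 arrays of the stage alone they were 0, 0, 0 and 0. With the block as well, an alternative chosen after seeing the data, they were 7, 7, 7 and 2. That fit called 4351, 4482, 5465 and 2319 of all 32539 probe sets. Without dim probe sets, which took out 2 of the 9 members, they were 2, 3, 2 and 1, and on means per symbol 3, 2, 3 and 0. The fit without dim probe sets called 318, 298, 376 and 188 of the 19859 kept. For means per symbol, and for the fits with 1 array left out, the share of all called is not given. Those counts are therefore no measure of how firm the calls are. Leaving out 1 array gave 3 to 4, 0 to 3, 1 to 4 and 0, and with the block 5 to 6, 5, 4 to 6 and 1. The 0 for MO2+MO3 came when either CoMO replicate 2 or MO2+MO3 replicate 2 was left out, and the 1 for the mean came without CoMO replicate 2. For the change of an effect between stages the counts were 0 for MO1 and 0 for MO2+MO3. With the block they were 4 and 5, leaving out 1 array with the block gave 4 and 3 to 5, and means per symbol gave 1 for MO1. Centring each array and robust eBayes left the counts at stage 10.5 as they were, quantile normalization changed only that of MO2+MO3 (3), and at stage 8 every alternative gave 0. With 1 array left out, the direction turned for these uncalled values at stage 10.5: dlx2.S (between -0.26 and 1.03 in MO1 and between -1.04 and 0.27 in MO2+MO3), MO1 minus MO2+MO3 of the first dlx3.L probe set (-0.105 to 0.083) and the second (-0.135 to 0.074). It also turned for the change of the MO1 effect between stages of the third dlx3.L probe set (-0.0587 to 0.229). At stage 8, where none was called, it turned for 5 of the 9 probe sets in MO1 (those of dlx2, dlx3.S and dlx5.L and the first of dlx3.L, between -0.36 and 0.50) and for 6 in MO2+MO3 (those of dlx2 and dlx3, between -0.85 and 0.17), among them the third dlx3.L probe set in MO2+MO3 (-0.0072 to 0.17). The cause of these changes was not tested. In the fits that leave a group with 1 array, that array is assumed to vary like the other groups. Dim signal leaves no size for the falls of the second dlx3.L probe set and dlx6.L, and only a bound for those of dlx3.S, the first dlx3.L probe set, dlx5.L and, in MO2+MO3, the third dlx3.L probe set.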

Other observations

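dlx2.S followed the replicate number more than the injection at stage 10.5. Against the CoMO array of its own number, MO1 replicates 1 and 2 were 0.07 and 0.70 higher, and MO2+MO3 replicates 1 and 2 had log2 differences of -0.38 and -0.39. The residual SD of dlx2.S fell to 0.455 with the block, against 0.66 without it, the largest of the 9 members in both fits. The genes most like it over the 6 arrays were sec22c.L (root mean square difference 0.18, r of 0.978), plcb1.S (0.19, r of 0.983) and rasl11b.L (0.23, r of 0.944), and none was called for the mean of both depletions. Since they were picked for likeness on those arrays, the lack of a call follows from the choice. On sec22c.L the CoMO arrays had 0.38 and -0.56, on plcb1.S 0.49 and -0.53, and on rasl11b.L 0.38 and -0.90.

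Means over the probe sets of a gene hide the split within dlx3.L. Over its 3 probe sets dlx3.L had a log2 difference of -0.88 ± 0.10 in MO1 (limma adjusted p = 0.00751), beside -1.27 ± 0.11 for dlx3.S on its single probe set.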
